A study of Mus musculus with 8 samples.

Results

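Trpm6 encodes a magnesium channel, and it was followed here with 9 other genes of magnesium and calcium transport in the uterus of C57BL/6 mice. The genes were Trpm6, Trpm7, Cnnm4 and Slc41a1 for magnesium, and Trpv6, S100g, Trpv2, Trpv4, Trpm4 and Trpc1 for calcium and other cations. They were chosen by name with the difference between the groups already known, and Trpm6 was picked from the largest rises. That difference is therefore given below as a description of these genes, and their adjusted p-values say where they lie in the table and support nothing further. Each gene had 1 probe set, so 10 of the 19938 genes with a probe set of a single named gene were followed, and all 10 passed the filter on low intensities.

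The study compared 4 uterine samples of pregnant mice with 4 of pseudopregnant mice, each an array of total RNA from a sample labelled as a biological replicate. Pregnant females had been mated with stud males and collected on day 3 at 22 h, counting the mating night as day 0, and only uteri with blastocysts but no blue dye reaction, a sign of embryo attachment, were used. Pseudopregnant females had been mated with vasectomized males and collected at the same hour, so they carried no embryos. All were young virgin females before mating, the samples with the best RNA were chosen by the submitters, and the kind of male differs between the groups along with the embryos, so these cannot be told apart. The tissue was whole uterus, in which more cells of a type and more RNA per cell cannot be told apart.

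Magnesium enters cells through TRPM6 and TRPM7, unusual proteins that join an ion channel to a protein kinase. TRPM7 is made in nearly all cells, whereas TRPM6 is best known from absorptive epithelium of the kidney and intestine, where it sets how much magnesium the body takes up. CNNM4 and SLC41A1 are linked to the export of magnesium. Calcium crosses epithelial cells by entry through TRPV6, binding to the carrier calbindin-D9k, the product of S100g, and export by plasma membrane pumps. TRPV6 and calbindin-D9k are made in the uterine epithelium, where steroid hormones control them.

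The intensities of Trpm6 and Trpv6 moved together across the arrays, in part through their shared group difference, and S100g is the partner of Trpv6 in calcium transport. Promoter windows are shown for Trpm6, Trpv6 and S100g. They reach from 250 bases before to 50 bases after the annotated gene start in RefSeq (GRCm38.p6), are written 5′ to 3′ on the strand of the gene, and lie at chr19:18749480-18749779 (plus strand), chr6:41636356-41636655 (minus strand) and chrX:162964550-162964849 (minus strand). Capitals mark matches on either strand to the nuclear receptor half-site AGGTCA, the progesterone and glucocorticoid receptor half-site AGAACA, the TATA box TATAAA or the GC box GGGCGG.
Trpm6: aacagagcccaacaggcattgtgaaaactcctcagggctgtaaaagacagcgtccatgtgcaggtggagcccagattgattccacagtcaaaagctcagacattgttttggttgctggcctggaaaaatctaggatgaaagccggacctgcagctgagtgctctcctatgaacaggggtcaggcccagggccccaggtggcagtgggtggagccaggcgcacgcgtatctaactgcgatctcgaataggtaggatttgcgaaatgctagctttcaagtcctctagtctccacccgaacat
Trpv6: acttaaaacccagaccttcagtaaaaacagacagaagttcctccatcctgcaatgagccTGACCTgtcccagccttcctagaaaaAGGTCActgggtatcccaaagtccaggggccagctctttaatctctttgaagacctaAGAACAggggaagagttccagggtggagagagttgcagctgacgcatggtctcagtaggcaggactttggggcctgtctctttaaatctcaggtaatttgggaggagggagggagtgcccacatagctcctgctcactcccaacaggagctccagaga
S100g: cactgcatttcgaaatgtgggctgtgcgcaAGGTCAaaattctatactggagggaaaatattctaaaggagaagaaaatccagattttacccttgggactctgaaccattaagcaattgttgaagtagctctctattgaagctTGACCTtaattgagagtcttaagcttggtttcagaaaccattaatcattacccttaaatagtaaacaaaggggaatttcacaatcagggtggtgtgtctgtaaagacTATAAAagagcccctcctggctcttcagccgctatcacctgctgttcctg

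The Trpm6 window held none of the 4 motifs. The Trpv6 window held the half-site AGGTCA on each strand, with first bases at -191 and -165 (the gene start is base 1), and AGAACA at -108. The S100g window also held AGGTCA on each strand, at -220 and -107, and TATAAA from base 1. Of all 32851 windows of this length, 16.3% held AGGTCA, 19.0% AGAACA, 13.6% TATAAA and 35.7% GGGCGG. Windows were found for 9 of the 10 genes. Separate windows of Trpv2, at different gene starts, held TATAAA from base 37 and AGAACA on the other strand at -226. GGGCGG was found for Cnnm4, Slc41a1, Trpc1 and Trpv4, and their windows were richer in G and C (63.0% to 76.3%) than those of Trpm6 (53%), Trpv6 (51.3%) and S100g (41%), where the median window had 52.7%. The Trpm7 window, with 63.7%, held no GGGCGG. These matches are descriptions of letters, and no binding was measured.

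The 8 arrays had medians of 55.2 to 56.3, and correlations over kept probe sets between arrays of a group were 0.984 to 0.994. Pregnant replicate 2 had the lowest mean correlation with its group, 0.985, against 0.989 to 0.992 for the other 7 arrays. Without it the differences were 0.90 for Trpm6 (limma, adjusted p = 0.058) and 0.81 for Trpv6 (adjusted p = 0.083). The number of arrays limits the precision of every value given.

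Trpm6, the epithelial magnesium channel, had higher intensities in pregnant uteri. Its log2 intensities were 6.47, 6.37, 5.74 and 6.35 in pregnant replicates 1 to 4, and 5.43, 5.10, 5.57 and 5.04 in pseudopregnant replicates 1 to 4. Every pregnant array lay above every pseudopregnant array, and pregnant replicate 3 came closest to the pseudopregnant range. The group means were 6.23 ± 0.33 and 5.29 ± 0.25 (SD, n = 4 each). Trpm6 rose by 0.95 ± 0.17 (SE) on the log2 scale, a fold of 1.93 with a 95% interval of 1.49 to 2.50 (limma, adjusted p = 0.030). By size this rise ranked 16 among the 13039 genes kept. Signals under an array's 40th percentile (5.23 to 5.32) were treated as unreliable, and pseudopregnant replicates 2 and 4 fell in that range for Trpm6, so the size of the fold is not exact.

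A gene was called at an adjusted p under 0.05 over all probe sets kept. The call of Trpm6 rested on nearly the full set of arrays. It held without pregnant replicate 3 (a difference of 1.11, limma adjusted p = 0.016) and ended when any other single array was left out. The adjusted p was then 0.064, 0.058 and 0.073 for the loss of pregnant replicates 1, 2 and 4, and 0.073, 0.066, 0.053 and 0.054 for the loss of pseudopregnant replicates 1 to 4, with differences of 0.87 to 1.04. The call also ended without the intensity filter (limma, adjusted p = 0.058), and a stricter filter at the 60th percentile left Trpm6 and Trpv6 out.

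**Figure D1:**
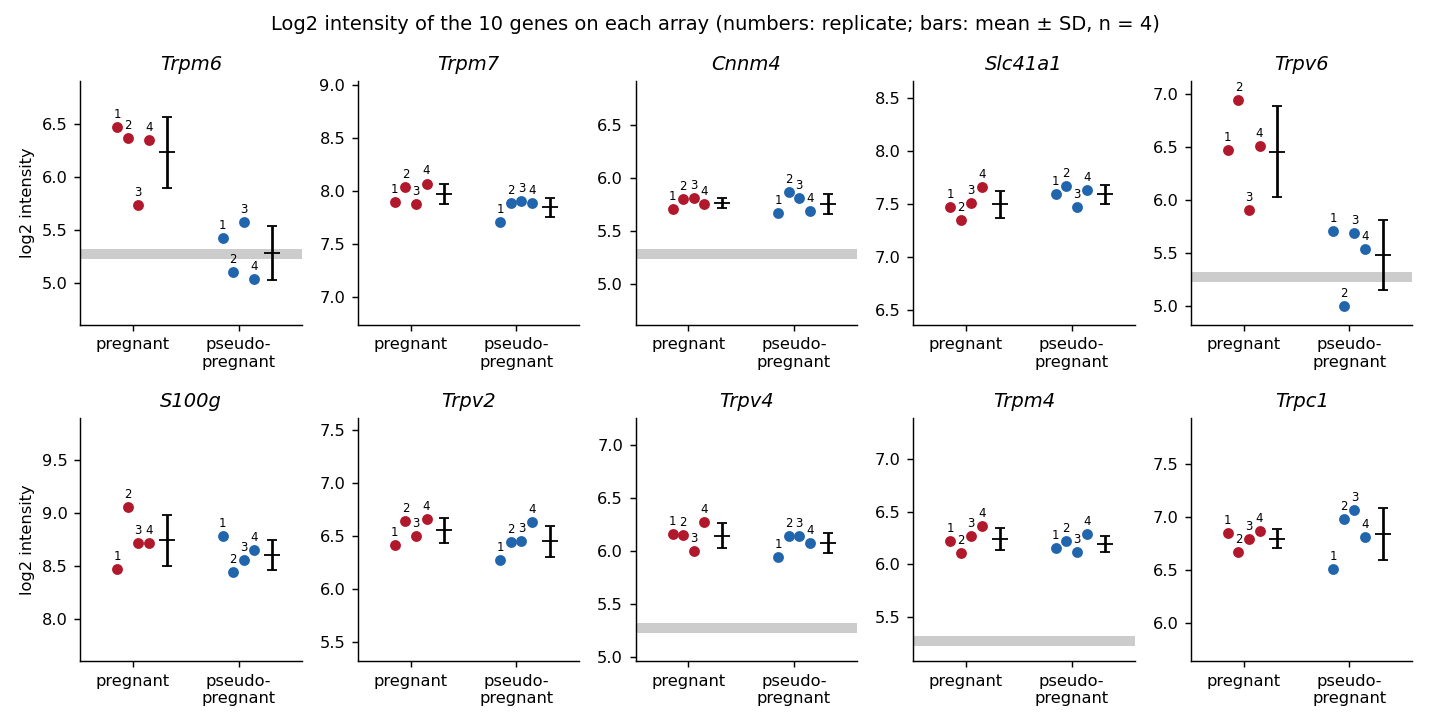
Log2 intensity (vertical axes, each spanning the same range of 2.3) of the 10 genes on the 4 pregnant (red) and 4 pseudopregnant (blue) arrays, numbered by replicate, with black bars for mean ± SD. Grey bands give the 40th percentiles of the arrays, 5.23 to 5.32, and the groups separate for Trpm6 and Trpv6 but overlap for the other 8 genes.

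Trpm7, the widely expressed relative of Trpm6, had log2 intensities of 7.89, 8.04, 7.88 and 8.07 in the pregnant group and 7.70, 7.89, 7.90 and 7.89 in the pseudopregnant group. The groups overlapped, and pseudopregnant replicate 1 was the low value. The difference was 0.13 ± 0.068 (SE), with a 95% interval of -0.03 to 0.28 (limma, adjusted p = 0.29), and 0.079 without pseudopregnant replicate 1.

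The genes linked to magnesium export overlapped between the groups. Cnnm4 had log2 intensities of 5.70, 5.80, 5.81 and 5.75 against 5.66, 5.86, 5.80 and 5.68, a difference of 0.01 ± 0.060 (SE; 95% interval -0.12 to 0.14). Its sign was negative with array weights and without single arrays in 4 cases, so it has no direction. Slc41a1 had 7.48, 7.35, 7.51 and 7.66 against 7.59, 7.67, 7.47 and 7.63, a difference of -0.09 ± 0.074 (SE; 95% interval -0.26 to 0.07), which was -0.04 without pregnant replicate 2 and -0.15 without pregnant replicate 4. Their limma adjusted p-values were 0.92 and 0.47.

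Trpv6, the epithelial calcium entry channel, followed the arrays much as Trpm6 did. Its log2 intensities were 6.47, 6.95, 5.91 and 6.51 in pregnant replicates 1 to 4 and 5.71, 5.0, 5.69 and 5.54 in pseudopregnant replicates 1 to 4. The groups did not overlap, and pregnant replicate 3 was again the lowest pregnant array. The means were 6.46 ± 0.43 and 5.48 ± 0.33 (SD, n = 4 each), a log2 difference of 0.97 ± 0.21 (SE) and a fold of 1.96 with a 95% interval of 1.41 to 2.73. By size this difference ranked 13 among the 13039 genes kept. Trpv6 did not pass (limma, adjusted p = 0.052). It passed without pregnant replicate 3 (1.16, adjusted p = 0.030) and with limma's array weights, which count less regular arrays for less (0.89, 0.046), in a range of 0.030 to 0.10 over 15 alternatives. Pseudopregnant replicate 2 also had an unreliable signal, so this size is not exact either.

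Markers of cell types were read on the same arrays. Over all probe sets kept, 1.82% were called and 23.7% passed at an unadjusted p under 0.05 (limma). Defining uterine genes were present, with 8 of 8 kept and 0 called. Of 11 epithelial markers kept 9 had differences below 0 and 0 were called, while 6 passed at an unadjusted p under 0.05, 5 of them lower, and their mean log2 intensity per array was 7.16 to 7.54 in pregnant and 7.48 to 7.83 in pseudopregnant uteri. Macrophage markers were higher in the pregnant group, 6 of 8 called (7.17 to 7.44 against 6.85 to 6.96). Of 6 kept markers of NK cells and lymphocytes, 4 were called higher and 1 had a difference below 0. The means of the 7 on the array were 5.97 to 6.53 against 5.40 to 5.84. Of 12 blastocyst and trophectoderm markers 8 stayed under the 40th percentile on all 8 arrays, among them Cdx2, Pou5f1 and Nanog, and the means were 4.98 to 5.10 against 4.99 to 5.16. Of the 4 kept, 0 were called and 1 was higher at an unadjusted p under 0.05 (limma). The kept ones include Krt8, which is also among the epithelial markers, so they do not stand for embryos alone. All 8 endothelial markers had differences below 0, with 2 passing unadjusted. None of 8 stromal, 8 smooth muscle, 8 endothelial, 5 mesothelial, 2 red blood cell and 1 ovary or oviduct markers kept were called. The ovary or oviduct marker differed by -0.79 and passed unadjusted, as did 2 smooth muscle markers, both lower. The part of these cell types in the differences of Trpm6 and Trpv6 was not tested.

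S100g, which encodes the calcium carrier calbindin-D9k, did not separate the groups as Trpm6 and Trpv6 did. It shared with Trpv6 the highest array, pregnant replicate 2, and the lowest, pseudopregnant replicate 2. Its log2 intensities were 8.47, 9.05, 8.71 and 8.72 in the pregnant group and 8.78, 8.44, 8.55 and 8.65 in the pseudopregnant group. The groups overlapped, with pregnant replicate 2 the highest of all arrays and pregnant replicate 1 below 3 of the 4 pseudopregnant arrays. The difference was 0.13 ± 0.12 (SE), with a 95% interval of -0.12 to 0.39 (limma, adjusted p = 0.50), and it was 0.03 without pregnant replicate 2 and 0.22 without pregnant replicate 1.

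The other cation channels overlapped between the groups. Trpv2, a calcium-permeable channel of macrophages and other cells, had 6.41, 6.64, 6.5 and 6.66 against 6.27, 6.45, 6.45 and 6.63, a log2 difference of 0.10 ± 0.085 (SE). Trpv4, which opens in response to cell swelling and warmth, had 6.16, 6.15, 6.00 and 6.27 against 5.94, 6.14, 6.14 and 6.08, a difference of 0.07 ± 0.072. Trpm4, which is opened by calcium but carries monovalent ions, had 6.22, 6.11, 6.27 and 6.36 against 6.16, 6.22, 6.12 and 6.29, a difference of 0.05 ± 0.067. None of these differences was larger than the spread between replicates. Leaving out single arrays moved them over 0.045 to 0.16 for Trpv2, 0.026 to 0.12 for Trpv4 and 0.0043 to 0.090 for Trpm4. The low ends came without pseudopregnant replicate 1 for Trpv2 and Trpv4 and without pregnant replicate 4 for Trpm4, and the high ends without pseudopregnant replicate 4, pregnant replicate 3 and pregnant replicate 2.

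Trpc1, a subunit of receptor-operated cation channels, had log2 intensities of 6.85, 6.67, 6.80 and 6.87 in the pregnant group against 6.52, 6.99, 7.07 and 6.82 in the pseudopregnant group, so the pseudopregnant values lay on both sides of the pregnant ones. Its difference was -0.05 ± 0.11 (SE), and lay between -0.16 without pseudopregnant replicate 1 and 0.025 without pseudopregnant replicate 3. The limma adjusted p-values of Trpv2, Trpv4, Trpm4 and Trpc1 were 0.48, 0.57, 0.70 and 0.81. Over the 8 genes other than Trpm6 and Trpv6, differences lay between -0.09 and 0.13 and the 95% intervals reached from -0.29 to 0.39. These intervals do not show that the 8 genes were equal between the groups.

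**Figure D2:**
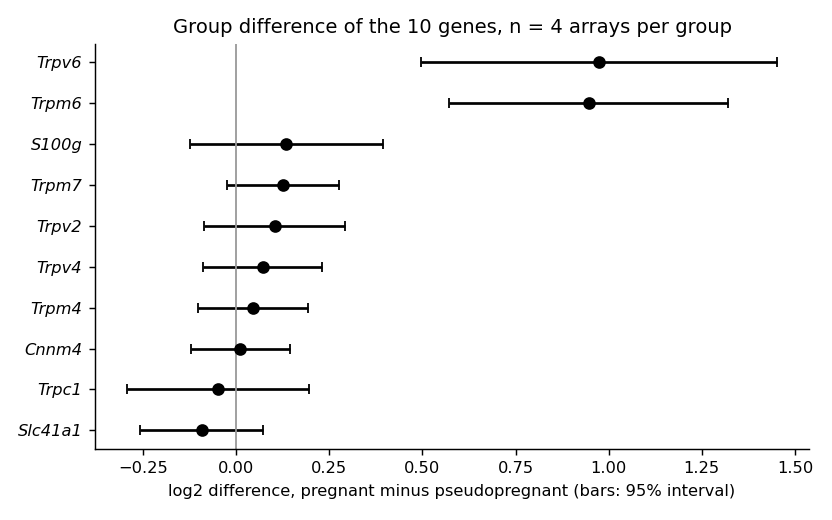
Log2 difference of the 10 genes (points, horizontal axis), pregnant minus pseudopregnant with 4 arrays per group, and its 95% interval from limma (bars). Trpv6 at 0.97 and Trpm6 at 0.95 lie apart from the other 8 genes, whose intervals all cross 0.

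In all, 1 of the 10 genes was called, where 1.82% of the 17494 probe sets kept were called (limma, adjusted p under 0.05). At an unadjusted p under 0.05 it was 2 of 10, where 23.7% of probe sets passed. The groups did not overlap for 2 of the 10 genes, against 14.6% of probe sets. The genes were chosen with these values in view, and nothing is read from the shares.

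The genes with profiles most like Trpm6 were found by the root-mean-square distance between log2 profiles over the 8 arrays, each centred on its own mean. Trpm6 itself varied by 0.54 about its mean on this measure. Among 13038 other genes the nearest were Cyp51 (0.218), an enzyme of cholesterol synthesis, Trpv6 (0.219), the cholesterol synthesis enzyme Sqle (0.227), the gap junction gene Gjb2 (0.229) and the kinetochore gene Cenpk (0.233). Cyp51 and Sqle rose by 0.71 and 0.62 (limma, adjusted p = 0.024 each), while Gjb2 (1.19, adjusted p = 0.052) and Cenpk (0.65, 0.070) did not pass. All 4 pseudopregnant signals of Gjb2 were in the unreliable range. Gjb2 thus passed the filter only through the pregnant group, where it was high, and its size is not exact. The distance to Trpm7 was 0.48 and that to S100g 0.50, close to the variation of Trpm6 itself.

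For Trpv6 the nearest gene was Trpm6, followed by the cell cycle regulator E2f8 (0.225), the immune checkpoint ligand Vtcn1 (0.234), Gjb2 (0.249) and the myeloid lectin Clec4a3 (0.259). S100g lay at 0.50 (rank 944), where Trpv6 itself varied by 0.59 about its mean. E2f8 rose by 0.88 (limma, adjusted p = 0.040) and Clec4a3 by 0.97 (adjusted p = 0.013), and Vtcn1 differed by 0.58 (adjusted p = 0.081). Pseudopregnant replicates 1 and 2 had unreliable signals for Clec4a3, so its size is not exact. Pregnant replicate 3 was the lowest pregnant array for Trpm6, Trpv6, Cyp51, Sqle, Gjb2, Cenpk, E2f8 and Vtcn1, and for Gjb2 and Cenpk it lay within the pseudopregnant range. The distance reflects the group difference as well as variation within the groups. Genes near Trpm6 or Trpv6 were therefore likely to be higher in the pregnant group, with pregnant replicate 3 low. Their differences and adjusted p-values are descriptions and support nothing further.

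**Figure D3:**
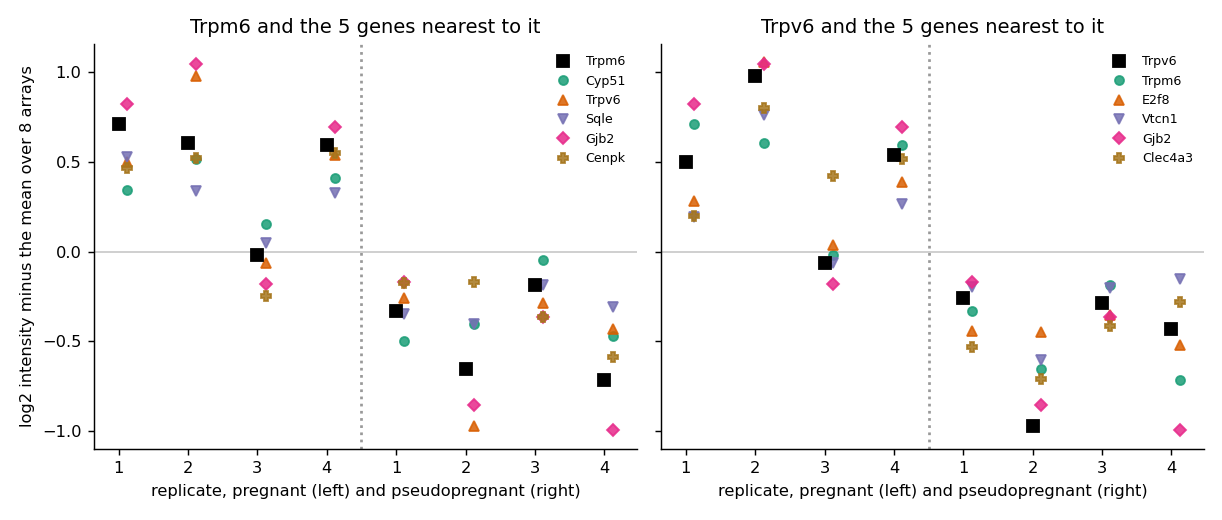
Log2 intensity minus each gene's mean over 8 arrays (vertical axis) for Trpm6 (left, black squares) and Trpv6 (right, black squares) with the 5 genes of smallest root-mean-square distance (coloured symbols), by replicate, pregnant arrays left of the dotted line. Pregnant replicate 3 lies near 0 for both channels, and it is the lowest pregnant array for every gene drawn except Clec4a3. The genes were chosen by likeness on these arrays, so this follows in part from the choice.

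S100g had other neighbours, namely the acetylcholine receptor subunit Chrna4 (0.071), the collagen gene Col24a1 (0.073), Arfgef3 (0.078), Tmem204 (0.079) and Gm15455 (0.084). All 5 overlapped between the groups, with log2 differences between 0.06 and 0.15. Pregnant replicate 2 was their highest array, as for S100g, which follows in part from choosing them by likeness to S100g on these arrays. Without it Chrna4 differed by 0.016 and Gm15455 by 0.065, and the differences of Col24a1 (-0.033), Arfgef3 (-0.0080) and Tmem204 (-0.039) were below 0. Nothing is read from these changes, given how the genes were chosen.

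Related genes were grouped in 7 lists that hold none of the 10 genes. Over all probe sets kept, 1.82% were called (limma, adjusted p under 0.05) and 23.7% passed unadjusted. Of 110 related genes on the array 68 were kept, and 0 of the 68 were called by limma at an adjusted p under 0.05. Unadjusted, 17 (25.0%) passed, with 8 differences above 0 and 9 below. With the stricter filter 1 was called, and 2 with an intensity trend and robust fit. The groups did not overlap for 11 of the 68, where 14.6% of all probe sets kept did not. The median log2 difference of the 68 was -0.04, against 0.0014 over all genes kept.

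Of 18 magnesium transporters kept, 8 passed unadjusted, 5 of them higher and 3 lower, with a median difference of -0.01. That is 44.4% of the list, where 23.7% of all probe sets kept passed, and no call was made in it. Slc41a2, a relative of Slc41a1, had 7.25, 7.41, 7.22 and 7.20 in the pregnant group against 6.80, 6.88, 7.11 and 6.83, without overlap. It differed by 0.36 ± 0.079 (SE) and missed the threshold (limma, adjusted p = 0.0504), passing with the stricter filter and with an intensity trend. Nipal3, of the NIPA family of magnesium transporters, had 6.07, 5.84, 5.93 and 5.91 against 6.23, 6.22, 6.31 and 6.12, and differed by -0.29 ± 0.065 (SE, adjusted p = 0.055). The intensity trend called Nipal3 as well. The members of this list thus lay on both sides of 0.

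Of 8 genes kept that act on TRPM6 or on magnesium in the kidney, 1 was higher at an unadjusted p under 0.05. This was Egfr, the receptor through which EGF stimulates TRPM6, with a log2 difference of 0.14 ± 0.061 (SE, limma adjusted p = 0.20). Cldn10, a claudin of paracellular ion channels, differed by 0.45 ± 0.22 (adjusted p = 0.24), and by 0.30 without pregnant replicate 2, its highest array. Its second probe set gave 0.41. Egf itself was not kept, with intensities of 4.46 to 4.98 on all 8 arrays.

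Only 4 of 18 other TRP channel genes were kept. Trpc6, a calcium-permeable channel opened by diacylglycerol, differed by 0.20 ± 0.097 (SE, limma adjusted p = 0.24) and Trpm3 by -0.21 ± 0.13 (adjusted p = 0.33). Without pregnant replicate 2 they were 0.30 (adjusted p = 0.051) and -0.08. Trpv5, the closest relative of Trpv6, was below the 40th percentile on every array, at 4.35 to 4.62 in pregnant and 4.57 to 4.87 in pseudopregnant uteri. Egf and Trpv5 were singled out after their values were seen.

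None of the 9 genes kept for transcellular calcium transport and its hormones was called, and 6 had differences below 0, with a median of -0.15. Calb1, which encodes the larger calcium carrier calbindin-D28k, had 8.50, 6.82, 8.74 and 8.18 in the pregnant group against 9.67, 9.25, 8.94 and 8.11 in the pseudopregnant group. The groups overlapped, and the difference of -0.94 ± 0.42 (SE) did not pass (limma, adjusted p = 0.21) and was -0.52 without pregnant replicate 2. By size this difference ranked 5 among the falls of the 13039 genes kept. The plasma membrane calcium pump gene Atp2b2 had 7.16, 6.73, 7.32 and 7.19 against 7.96, 7.39, 7.38 and 7.32, without overlap by a narrow margin, and differed by -0.41 ± 0.16 (adjusted p = 0.16).

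Among 10 kept genes of store-operated calcium entry and calcium release, 3 passed unadjusted, 1 higher and 2 lower. Over all probe sets kept 23.7% passed, and nothing is read from the counts given here. The calcium sensor Stim2 differed by 0.14 ± 0.056 (SE, limma adjusted p = 0.16) and Saraf, which turns store-operated entry off, by -0.13 ± 0.053 (adjusted p = 0.17). Of 11 kept voltage-gated calcium channel genes, 9 had differences below 0 and 2 were lower at an unadjusted p under 0.05, Cacna1e by -0.26 ± 0.074 (adjusted p = 0.081) and Cacna1d by -0.17 ± 0.069 (adjusted p = 0.17). Of 8 kept S100 genes, relatives of S100g, 1 was higher and 1 lower, S100a6 by 0.31 ± 0.12 (adjusted p = 0.15) and S100a16 by -0.20 ± 0.066 (adjusted p = 0.11).

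**Figure D4:**
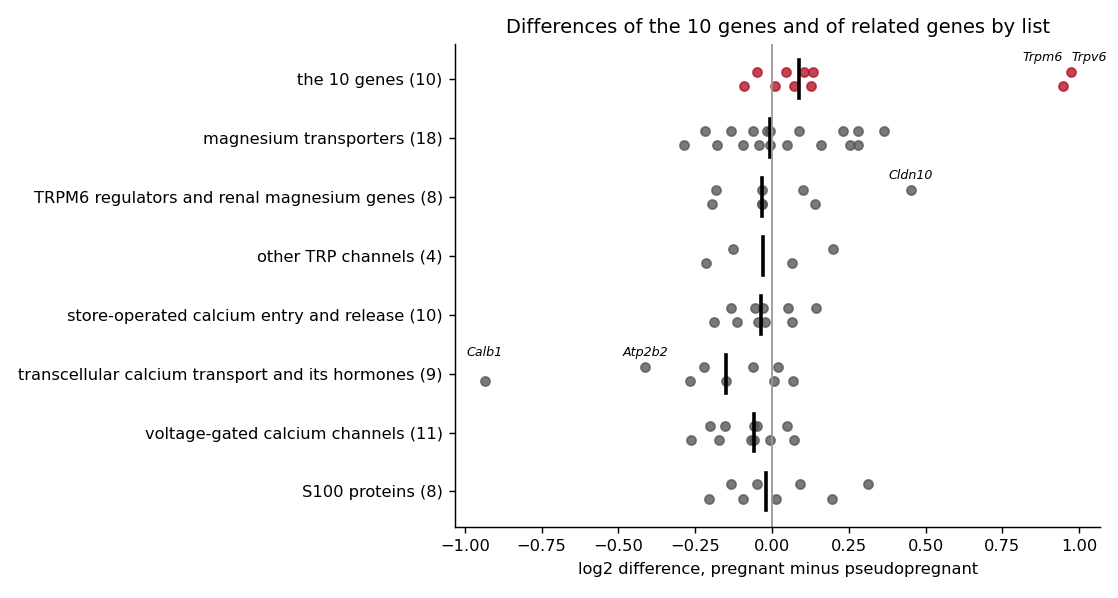
Log2 difference, pregnant minus pseudopregnant (horizontal axis), of the 10 genes (red) and of the kept genes of 7 related lists (grey, number kept in brackets), with a black line at each median. Genes beyond 0.4 in size are named, and none of the related genes reaches the differences of Trpm6 and Trpv6 in the upward direction. Downward, Calb1 lies at -0.94.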

How the data were processed

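The authors deposited linear intensities, 1 per probe set and array, computed with RMA according to the submitters' processing notes. For RMA's software and the annotation build, nothing is given in the sources used here. RMA compresses changes near background. Here log2 was taken. Of 35556 probe sets, the 6612 with the lowest identifiers, a block with no gene in the platform table, were left out as presumed controls. Probe sets above the 40th percentile of their array on at least 4 of 8 arrays were kept (17494). A gene was read from its probe set of highest mean. Named related genes were, per list, the 2 with the smallest p, since none was called, besides profile neighbours.

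Groups were compared with lmFit and eBayes (limma 3.58.1, R 4.3.3; 2-sided tests), adjusted by Benjamini-Hochberg over all kept probe sets, and checked on simulated data. Figures used matplotlib 3.10.9. The members and lists were chosen with earlier results of these data known. RefSeq promoters matched 9 of 10 genes by symbol.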

Additional observations from a re-analysis of the deposited data

Results flagged for a closer look

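Of 72 groups of 4 arrays checked over 36 named genes, 6 held an array far from the other 3 by Dixon's criterion, which chance flags in about 1 in 20 groups. Pregnant replicate 3 was low for Trpm6 (5.74, where the remaining pregnant arrays had 6.35 to 6.47) and for Cenpk (5.65, against 6.37 to 6.45). Pseudopregnant replicate 1 was low for Trpm7 (7.70, against 7.89 to 7.90) and high for Atp2b2 (7.96, against 7.32 to 7.39). Pregnant replicate 2 was high for Cldn10 (8.69, against 8.09 to 8.10), and pseudopregnant replicate 2 was low for Vtcn1 (8.57, against 8.97 to 9.02). Cenpk was named for its likeness to Trpm6 and Vtcn1 for its likeness to Trpv6 on these arrays. Their flags are therefore not separate observations, and the chance rate does not hold for them.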

How the results depend on the processing

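The count of called probe sets, 319, was 54 without the intensity filter, 708 with an intensity trend and robust fit, 174 with the replicate block and 40 to 235 without single arrays. The count of called genes among the 10, 1, was 0 without the filter, 0 with the stricter filter, which removed Trpm6 and Trpv6, 0 with the replicate block, 2 with array weights and 0 to 2 without single arrays. The count of called related genes, 0, was 1 with the stricter filter (Slc41a2) and 2 with the intensity trend (Slc41a2 and Nipal3). The Trpm6 difference stayed at 0.95 without the filter (limma, adjusted p = 0.058) and with the replicate block (0.057), and was 0.87 to 1.11 without single arrays. The sign turned for Trpc1 without pseudopregnant replicate 3 (0.0251; range over all 8 arrays left out -0.158 to 0.0251) and for Cnnm4 with array weights (-0.0103) and without 4 of the 8 single arrays (range over all 8 -0.0191 to 0.0473). The causes were not tested.

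The replicate numbers of the labels gave no clear sign of a pairing of the samples. Same-numbered arrays had deviations from their group means that correlated by 0.24, 0.016, -0.10 and 0.044. Across the groups, 3 of 8 samples matched best with their own number. These values cannot exclude a pairing. Signals near background limit the sizes for Trpm6 and Trpv6, whose pseudopregnant values lay partly below the 40th percentile.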
